A study of Mus musculus with 5 samples.

Results

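Hepatocytes taken 48 h after partial hepatectomy were compared with hepatocytes taken 24 h after it, across all genes. Both groups were C57BL/6J mice operated on at 8 weeks of age by 2/3 partial hepatectomy (PHx), an operation that takes out the larger liver lobes, and no other genotype or agent is given for either. Per the labels' protocols, liver cells were released by a 2-step perfusion, passed over a dead-cell removal kit and profiled in droplets with a 10x v3 kit, which counts unique molecular identifiers (UMIs), the tags that mark single captured RNA molecules. The same series holds an adult control, a 96 h and a postnatal day 14 (P14) library, which are used below as levels beside the comparison. The adult control also set the limits by which cells were classed as rich in mitosis or replication transcripts. A hepatocyte was a barcode with at least 5000 UMIs, of which 10% to 30% came from the 13 mitochondrial genes and at least 1% from Alb, Apoa1 and Ttr together. This rule kept 1170 barcodes at 24 h and 719 at 48 h, 1889 of the 5691 hepatocytes of the series and of its 14704 barcodes with at least 5000 UMIs.

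Each time point is 1 library. How many animals stand behind it, and of which sex, is not in the labels, and the sample descriptions of both carry the same library code. There was no replicate, so no test between the times was possible, and every interval below is a 95% counting interval for UMIs or cells that says nothing about differences between mice. Y-linked transcripts were present and Xist was near absent in both (0 UMIs at 24 h, 1 UMI at 48 h), so the libraries did not differ in that respect. No hepatocyte barcode was shared between them.

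A hepatectomised liver restores its mass mainly by division of the remaining hepatocytes. These cells leave quiescence under cytokine and growth factor signals, copy their DNA in S phase and then enter mitosis, while the liver continues to make plasma proteins, urea, glucose and bile acids. Genes for DNA replication and for mitosis are switched on in successive waves of the cell cycle, which makes their transcripts usable as markers of how far cells have advanced. Surgery also sets off an acute phase response, in which hepatocytes secrete large amounts of defence and transport proteins.

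The cells at 48 h were deeper, with a median of 35432 UMIs against 19562 at 24 h, and the summed counts without mitochondrial genes were 20833042 and 19515295 UMIs. Within the 10% to 30% that the rule allowed, the median mitochondrial share was 24.5% and 23.8%. Free RNA, estimated from empty droplets, was 669.7 UMIs per droplet at 24 h and 290.0 at 48 h, which is 3.09% and 0.770% of the hepatocyte UMIs. Apart from Alb, Apoa1 and Ttr, which the rule used, all 7 other hepatocyte markers were above 5 CPM (UMI counts scaled to a sum of 1000000 per library) in both libraries. Their summed level was 22099 CPM at 24 h and 20849 CPM at 48 h. At the edges of the rule, 117 cells at 24 h but 5 at 48 h had between 1% and 1.5% of UMIs from Alb, Apoa1 and Ttr, and 147 and 125 cells had between 28% and 30% mitochondrial UMIs, against 79 barcodes in each library between 30% and 32%.

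Levels are given as CPM of the summed counts without mitochondrial genes, and ratios as log2 of (CPM + 1) at 48 h over (CPM + 1) at 24 h, so that positive values mean higher at 48 h. Of 8817 genes with at least 5 CPM in either library, 157 (1.78%) were at least 2-fold higher at 48 h and 155 (1.76%) at least 2-fold lower. The counts of list members past 2-fold given below stand beside these shares. No such share was taken over the genes that reached 5 CPM in both libraries. Most genes differed little, as 7747 (87.9%) were within 1.5-fold and the median ratio was -0.07, with 41.4% of genes above 0. Among the 2884 genes with at least 50 CPM in either library, 51 (1.77%) were at least 2-fold higher and 75 (2.60%) at least 2-fold lower. Of the 20 genes with the highest ratios at that level, 9 belonged to lists of mitosis genes, and of the 20 with the lowest, 8 were major urinary protein genes. Of those 9, only Ube2c (51.5 CPM) reached 50 CPM at 24 h, so the others passed the filter through 48 h, where they were high. Mup18 and Mup9 passed it through 24 h only.

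**Figure D1:**
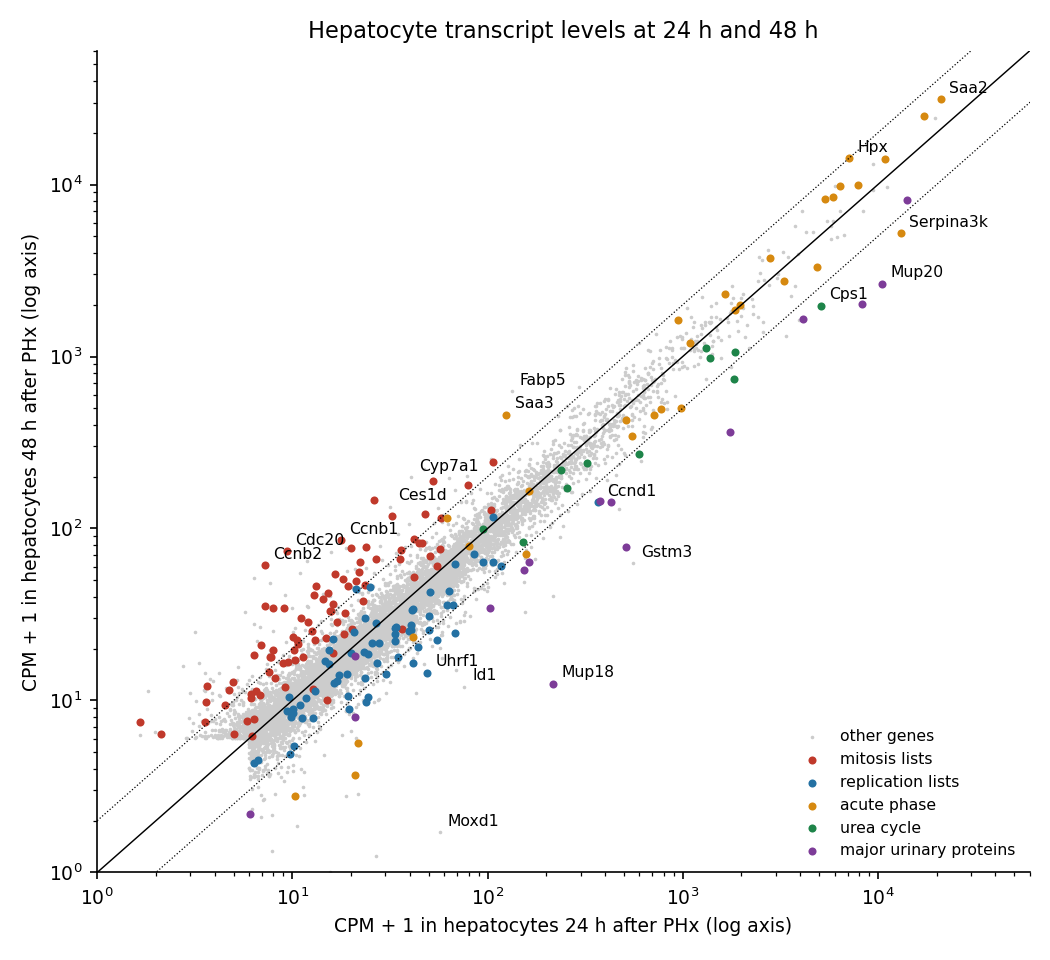
Level of each of the 8817 genes in hepatocytes at 24 h (horizontal axis) and 48 h (vertical axis), both as CPM + 1 on log axes, 1 point per gene and 1 library per axis. The solid line marks equal levels and the dotted lines 2-fold differences. Mitosis genes (red) lie mostly above the solid line, replication genes (blue) and urea cycle genes (green) mostly below it, and the major urinary protein genes (purple) lie below it, with Mup18 and Moxd1 farthest from it.

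Mitosis genes were the group with the most members higher at 48 h. Of 92 genes in 3 lists (cyclins and kinases, kinetochore and checkpoint genes, spindle and cytokinesis genes), 86 reached 5 CPM, 49 of these were at least 2-fold higher and none at least 2-fold lower. Their median ratio was 1.07 against -0.07 for all genes, and 83 of 86 lay above 0. The members that reached 5 CPM in only 1 library had to differ, though not by 2-fold, which also holds for such genes below. Of the 76 that reached it in both, 41 were at least 2-fold higher, and neither count is a test.

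Cyclin B genes, whose products switch on the kinase Cdk1 at the entry into mitosis, stood among the largest differences. Ccnb2 measured 6.20 CPM at 24 h (5.14 to 7.41) and 60.2 CPM at 48 h (56.95 to 63.7), and Ccnb1 measured 16.7 and 84.9 CPM, ratios of 3.09 and 2.28. The counting intervals of the libraries do not overlap for either cyclin, which counts this deep also give at small ratios. The Y-linked Ddx3y, for example, had a ratio of -0.30 and intervals of 134 to 145 and 109 to 118 CPM. Cdk1 itself measured 41.1 and 85.6 CPM (ratio 1.04), cyclin A (Ccna2), which acts from S phase to early mitosis, 18.2 and 45.5 CPM (1.27), and Foxm1, a transcription factor of late cell cycle genes, 6.66 and 16.9 CPM (1.22, but 0.81 with cells thinned). The phosphatase Cdc25c, which activates Cdk1, went from 0.666 to 6.48 CPM, and polo-like kinase Plk1 from 6.97 to 33.6 CPM, a 4.82-fold difference. Wee1, the kinase that restrains Cdk1, was the 1 member of this list with a ratio below 0, at 14.04 and 9.12 CPM (-0.57).

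Genes of the exit from mitosis were as far apart. Cdc20, the activator of the anaphase-promoting complex, measured 8.40 CPM at 24 h and 73.2 CPM at 48 h (ratio 2.98, counting interval of the log2 fold without pseudocount 2.89 to 3.36). Cdca3, which acts on the mitotic entry switch, measured 25.1 and 146 CPM, Ube2c, the ubiquitin-conjugating enzyme of the same complex, 51.5 and 188 CPM, and Birc5 (survivin), a subunit of the chromosomal passenger complex, 31.4 and 116 CPM. Kinetochore genes within the lists ranged from ratios near 0 (Cenpn 0.00, Cenpk -0.14) to 1.92 for Cenpe and 1.94 for Cenpf. Among spindle genes, Kif20a, a motor of cytokinesis, had the highest ratio at 2.29 (6.20 and 34.2 CPM), while Top2a, which untangles DNA, was 1.80-fold higher and Ncapg2, a condensin subunit, had a ratio of -0.50. Cdkn3 and Knstrn, a phosphatase and a kinetochore protein outside the lists, measured 5.33 and 9.89 CPM at 24 h and 50.5 and 54.3 CPM at 48 h.

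A larger share of cells held these transcripts at 48 h. With each cell thinned to 5000 UMIs, 1.79% of hepatocytes at 24 h and 16.0% at 48 h had a Ccnb2 UMI, 4.10% and 21.0% a Ccnb1 UMI, and 10.7% and 24.9% an Mki67 UMI. All 719 and 1170 cells had an Saa1 UMI. Linker histone H1fx (4.71 and 31.7 CPM), variant histone H2afx (17.99 and 55.8) and the tubulin genes Tubb6 (38.7 and 105) and Tubb4b (146 and 305) were also at least 2-fold higher. Of 22 histone and chromatin genes, 3 were at least 2-fold higher and none lower (median 0.37). H1fx reached 5 CPM at 48 h only and so had to differ.

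Replication genes ran the other way. Of 74 genes in 2 lists, 67 reached 5 CPM, 1 was at least 2-fold higher, 10 were at least 2-fold lower, and the median ratio was -0.41. In the list of G1/S regulators and origin licensing genes, the factors that commit a cell to S phase and load the replicative helicase onto DNA, 7 of 25 were at least 2-fold lower and the median was -0.80. In the list of fork proteins and nucleotide synthesis, 3 of 42 (7.14%, beside 1.76% of all genes) were at least 2-fold lower and the median was -0.28.

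Cyclin D1 (Ccnd1), which couples growth signals to the cell cycle, measured 369 CPM at 24 h and 141 CPM at 48 h, and at 5000 UMIs it was detected in 70.4% and 35.7% of cells. The E cyclins Ccne1 and Ccne2, which act at the start of S phase, had ratios of -1.22 and -1.30, which were -0.92 and -0.93 at 2% or more of UMIs from Alb, Apoa1 and Ttr. All 6 subunits of the MCM helicase were lower, from Mcm4 (40.5 and 15.5 CPM, -1.33) and Mcm3 (54.3 and 21.4 CPM, -1.30) to Mcm7 (39.6 and 26.3 CPM, -0.57). Uhrf1, which recruits the maintenance DNA methyltransferase to new DNA, measured 48.1 and 13.5 CPM (-1.76), Hells, a chromatin remodeller of the same process, 67.1 and 23.7 CPM (-1.46), and the methyltransferase Dnmt1 49.4 and 24.5 CPM (-0.98). With cells thinned to 5000 UMIs, Ccne1, Hells and Tyms were under 2-fold, at -0.95, -0.90 and 0.91. Not every member followed. Thymidylate synthase Tyms was higher at 48 h (20.2 and 43.8 CPM, 1.08), as was Dbf4, the regulatory subunit of the origin-firing kinase (24.03 and 44.5 CPM, 0.86).

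Counting the pooled lists in each cell at 5000 UMIs separated the cells further. A cell was called mitosis-rich with more than 4 mitosis UMIs and replication-rich with more than 7 replication UMIs, the 99th percentiles of the adult control cells. Mitosis-rich cells made up 32.4% of hepatocytes at 24 h (29.7% to 35.2%, 379 of 1170) and 51.9% at 48 h (48.2% to 55.6%, 373 of 719). The share of 0.973% in the adult control was fixed in advance, because the limit was set on those cells. Replication-rich cells made up 50.9% (47.9% to 53.8%) and 29.9% (26.6% to 33.4%). By a rule of at least 3 replication genes with a UMI the shares were 85.7% and 77.7%, and 37.3% in the adult control. Cells rich in both were 29.3% and 23.1%, and cells rich in replication transcripts alone 21.5% and 6.82%. Those rich in neither were 46.1% (539 cells) and 41.3% (297 cells), with intervals of 43.2% to 49.0% and 37.7% to 45.0%.

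The mitosis-rich cells themselves also differed between the times. They held a median of 10 mitosis and 16 replication UMIs per 5000 at 24 h, and of 24 mitosis and 7 replication UMIs at 48 h. These classes are ranges of a count and not cell types, and 146 cells at 24 h and 53 at 48 h lay within 1 UMI of the mitosis limit, 134 and 77 of the replication limit. Within the mitosis-rich cells, where the selection acts on the mitosis lists, the replication median was -0.88, 29 of 67 genes were at least 2-fold lower, beside 2.56% of all genes there and an all-gene median of -0.06, and Ccnd1 had a ratio of -1.97. Outside both limits the mitosis median was 0.20 and the replication median -0.19.

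**Figure D2:**
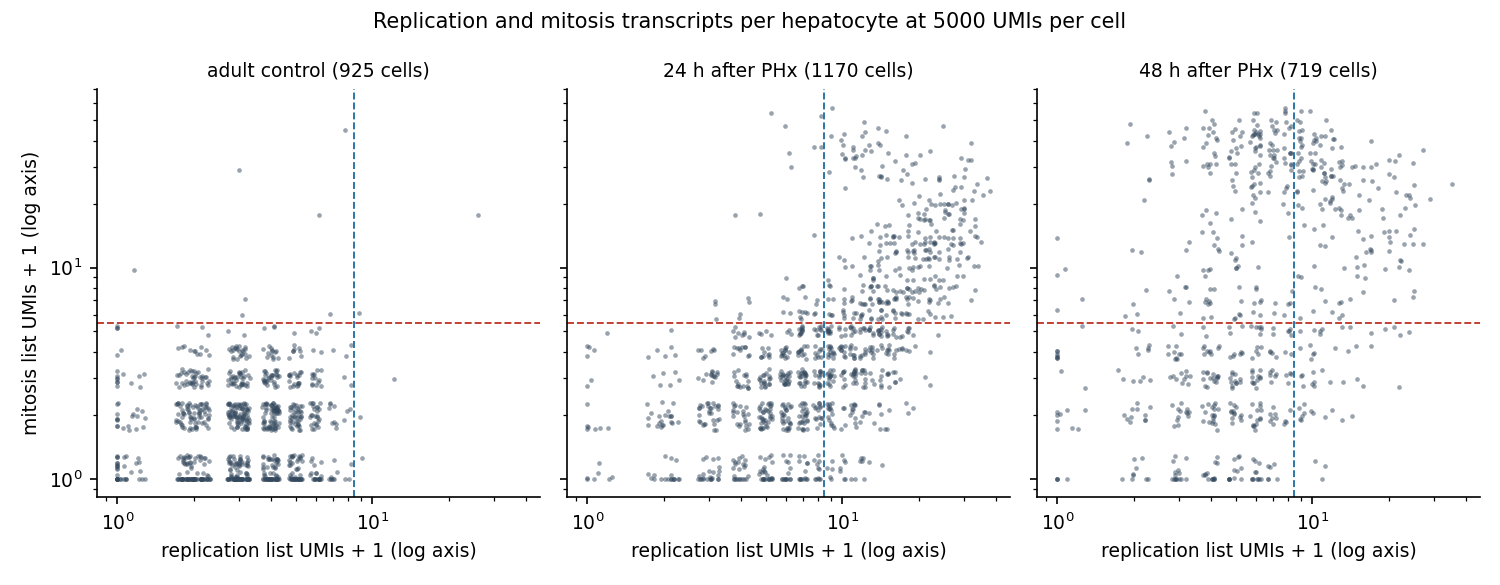
UMIs of the pooled replication lists (horizontal) and mitosis lists (vertical) in each hepatocyte thinned to 5000 UMIs, as UMIs + 1 on log axes with small random offsets, 1 point per cell. Dashed lines mark the limits of 7 replication and 4 mitosis UMIs. Adult control cells lie almost all below both lines, which were set from those cells. Part of the cells at 24 h spread to the upper right, and part of those at 48 h form a group of high mitosis and moderate replication counts. Cells rich in neither list, 46.1% at 24 h and 41.3% at 48 h, lie below both lines.

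Promoters of these groups were set beside each other because their members differed in opposite directions. RefSeq promoter windows of GRCm38.p6 (250 bases before to 50 after a start site) were found for 76 of the 92 mitosis genes (84 windows) and 59 of the 74 replication genes (71 windows). Searched on both strands, TTTGAA or TTCGAA, the letters of the cell cycle homology region, were in 70.2% of mitosis windows, 22.5% of replication windows and 19.2% of all 32851 windows. TTTGGCGC or TTTCGCGC, letters of E2F sites, were in 5.95%, 22.5% and 0.813%. CCAAT, the letters read by the factor NF-Y, were in 72.6%, 56.3% and 37.4%. A match is a description of the letters and was not tied to binding in these cells. In the windows below the matches to these motifs, on either strand, are in capitals and the strand is that of the gene. They show 3 mitosis genes with among the highest ratios and 3 replication genes that were lower.
Ccnb2 (chr9:70421505-70421804, minus strand): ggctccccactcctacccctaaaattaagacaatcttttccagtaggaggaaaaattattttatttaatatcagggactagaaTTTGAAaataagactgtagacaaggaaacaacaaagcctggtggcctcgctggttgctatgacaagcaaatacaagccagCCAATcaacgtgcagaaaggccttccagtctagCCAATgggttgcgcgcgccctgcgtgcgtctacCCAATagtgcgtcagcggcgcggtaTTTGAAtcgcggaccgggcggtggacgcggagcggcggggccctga
Cdc20 (chr4:118437294-118437593, minus strand): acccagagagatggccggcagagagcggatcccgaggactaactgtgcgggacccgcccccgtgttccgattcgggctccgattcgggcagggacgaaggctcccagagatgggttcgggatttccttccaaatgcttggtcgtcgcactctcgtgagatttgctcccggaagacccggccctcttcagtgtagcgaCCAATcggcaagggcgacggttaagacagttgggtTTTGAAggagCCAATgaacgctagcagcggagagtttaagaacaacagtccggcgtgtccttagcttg
Plk1 (chr7:122159185-122159484, plus strand): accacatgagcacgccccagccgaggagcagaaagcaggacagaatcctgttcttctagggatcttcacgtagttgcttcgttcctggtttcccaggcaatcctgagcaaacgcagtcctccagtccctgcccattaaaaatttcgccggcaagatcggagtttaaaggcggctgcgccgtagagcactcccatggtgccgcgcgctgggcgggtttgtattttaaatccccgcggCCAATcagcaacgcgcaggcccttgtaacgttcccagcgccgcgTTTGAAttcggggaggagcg
Mcm5 (chr8:75109259-75109558, plus strand): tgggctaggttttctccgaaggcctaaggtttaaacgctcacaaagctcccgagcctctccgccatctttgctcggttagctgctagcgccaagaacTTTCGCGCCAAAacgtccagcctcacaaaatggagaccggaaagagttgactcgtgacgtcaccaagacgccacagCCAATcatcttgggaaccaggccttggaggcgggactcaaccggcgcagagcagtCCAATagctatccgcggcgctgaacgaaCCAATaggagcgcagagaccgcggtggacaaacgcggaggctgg
Mcm3 (chr1:20820263-20820562, minus strand): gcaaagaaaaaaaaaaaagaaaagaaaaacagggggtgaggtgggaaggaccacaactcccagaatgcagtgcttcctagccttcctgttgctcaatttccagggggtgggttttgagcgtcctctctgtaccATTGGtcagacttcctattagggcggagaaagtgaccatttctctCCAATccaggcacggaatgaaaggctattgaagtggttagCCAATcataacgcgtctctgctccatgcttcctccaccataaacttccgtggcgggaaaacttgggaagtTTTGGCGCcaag
Uhrf1, one of its windows (chr17:56304063-56304362, plus strand): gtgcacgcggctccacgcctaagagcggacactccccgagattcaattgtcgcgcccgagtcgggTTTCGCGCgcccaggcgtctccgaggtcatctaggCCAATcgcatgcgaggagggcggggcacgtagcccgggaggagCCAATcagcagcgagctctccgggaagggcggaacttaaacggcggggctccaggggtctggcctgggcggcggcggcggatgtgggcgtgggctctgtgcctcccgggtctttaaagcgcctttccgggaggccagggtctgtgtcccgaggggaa
Ccnb2 carries TTTGAA both before the start (from base -167) and after it (from base 4), and 3 copies of CCAAT. In Cdc20 TTTGAA lies between copies of CCAAT just before the start, and Plk1 has 1 of each. In Mcm5 the 2 E2F spellings overlap on opposite strands, Mcm3 has 1 after the start, and none of the 3 replication windows holds TTTGAA or TTCGAA. Not all members follow the pattern. The Ccnb1 window and the Uhrf1 window that is not printed hold CCAAT only, and the Birc5 and Hells windows hold none of the motifs searched. E2F sites were searched in the 2 spellings above only, so a window without a match is not shown to lack such a site.

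Acute phase genes had no common direction. Of 31 tested, 1 was at least 2-fold higher, 5 were at least 2-fold lower and the median was 0.01. Of the 5, Il1rn, A2m and Orm3 reached 5 CPM at 24 h only and so had to differ, which leaves 2 of the 28 that reached it in both libraries. Several abundant secreted products were higher at 48 h and others lower. Serum amyloid Saa2 measured 20968 CPM at 24 h and 31492 CPM at 48 h, Saa1 17157 and 24977 CPM, and Saa3 124 and 459 CPM (1.88). The near-identical Saa1 and Saa2 can share reads, so their split is uncertain. Hemopexin (Hpx), the heme carrier, measured 7152 and 14281 CPM, a ratio of 0.998 just under 2-fold, and haptoglobin (Hp) and the fibrinogen chains Fga, Fgb and Fgg were higher by ratios of 0.62, 0.32, 0.63 and 0.53. Among the members that were lower, the protease inhibitor gene Serpina3k, itself in a family of close copies, measured 13159 and 5207 CPM (-1.34), lipocalin Lcn2, which binds bacterial siderophores, 4874 and 3307 CPM (-0.56), and Il1rn, the interleukin-1 receptor antagonist, 19.98 and 2.69 CPM. The receptor Il1r1 (-1.14, but -0.98 with cells thinned), Socs3, the feedback inhibitor of interleukin-6 signalling (-0.82), A2m (-1.90) and Orm3 (-1.93) were lower too, whereas Orm1 was not (0.37). Per cell, the acute phase list took a median of 11.1% of non-mitochondrial UMIs at 24 h and 14.5% at 48 h, with 10th to 90th percentiles of 8.70% to 14.4% and 11.2% to 18.0%.

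Other plasma proteins were mostly higher at 48 h, with 40 of 57 above 0, 2 at least 2-fold higher and a median of 0.24. The 2 are 3.51% of the list, beside 1.78% of all genes, of which 41.4% lay above 0. Transferrin (Trf), the iron carrier of plasma, measured 9472 and 13114 CPM. Serpina6, which encodes the corticosteroid-binding globulin, measured 10.9 and 63.6 CPM (2.44), both below the 68.9 CPM of the adult control. Mbl2, a mannose-binding lectin of innate defence, measured 255 and 516 CPM (1.01, but 0.98 with cells thinned). Apoa5 was the lowest member (-0.85).

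The major urinary protein genes, which encode pheromone carriers secreted by the adult male liver, were lower as a group. Of 15 tested, 13 were at least 2-fold lower, none was higher and the median was -1.46. Mup20 measured 10523 CPM at 24 h and 2656 CPM at 48 h, Mup11 8269.6 and 2017 CPM, and Mup3 14119.5 and 8100.1 CPM. Mup18 had the lowest ratio of the family (216 and 11.5 CPM, -4.12) and Mup10 the highest (-0.20). Because the genes are near-identical copies, reads can be split between them and the single values are uncertain. In the cells, the family took a median of 4.25% of non-mitochondrial UMIs at 24 h (10th to 90th percentile 3.06% to 5.71%) and 1.56% at 48 h (1.06% to 2.38%). These ranges are over cells of 1 library per time and do not describe differences between mice. The median of the adult control stood at 9.45% and that of the 96 h library at 1.26%.

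Enzymes of nitrogen disposal were lower at 48 h. The urea cycle list had a median of -0.57, with 3 of 11 at least 2-fold lower and 10 of 11 below 0. Cps1, the mitochondrial entry enzyme of the cycle, measured 5127 and 1974 CPM (-1.38, counting interval -1.39 to -1.36), the ornithine carrier Slc25a15 597 and 269.9 CPM, and Oat, which feeds ornithine into amino acid metabolism, 1839.8 and 740.3 CPM (-1.31, but -0.88 at 10 to 20% mitochondrial UMIs). Arg1 and Ass1 had ratios of -0.79 and -0.49, and Nags was near 0 (0.07). Per cell the list took a median of 1.38% of non-mitochondrial UMIs at 24 h and 0.725% at 48 h. Over the cells of 1 library per time, the 90th percentile at 48 h (0.991%) was about the 10th percentile at 24 h (0.989%). The adult control median, 1.04%, lay between the medians at 24 h and 48 h.

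Amino acid breakdown showed the same direction in 30 of 38 genes, with 6 (15.8%, beside 1.76% of all genes) at least 2-fold lower, none higher and a median of -0.47. The methionine enzymes Mat1a (3376 and 1307 CPM), Bhmt (3938 and 1626 CPM) and Cth (613 and 245 CPM), the histidase Hal (-1.39), the aminotransferase Got1 (-1.15) and the lysine enzyme Aass (-1.09, but -0.97 with cells thinned) were the 6. Fah and Haao, of tyrosine and tryptophan breakdown, had the highest ratios (0.53 and 0.40).

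Glucose genes were mostly lower. Of 19 gluconeogenesis and glycogen genes, 2 (10.5%, beside 1.76% of all genes) were at least 2-fold lower and the median was -0.48. The glucose transporter Slc2a2 measured 117 and 54.05 CPM (-1.10) and Ugp2, which makes the glycogen precursor, 333 and 163 CPM (-1.02). With cells thinned to 5000 UMIs they stood at -0.88 and -0.89, under 2-fold, and Ugp2 was at -0.99 with TMM and -0.97 with median-of-ratios scaling. Pck1, the rate-limiting enzyme of gluconeogenesis, had a ratio of -0.48, whereas glucose-6-phosphatase G6pc was higher (0.49).

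Lipid genes differed by pathway. Fatty acid oxidation and ketogenesis had a median of 0.23, with 20 of 30 above 0. The 3 members at least 2-fold higher were Acot1 (1.74 and 14.8 CPM), a cytosolic acyl-CoA thioesterase, the peroxisomal transporter Abcd2 (2.51 and 10.6 CPM) and the peroxisomal thiolase Acaa1b (58.2 and 118 CPM). Acot1 and Abcd2 reached 5 CPM at 48 h only and so had to differ, and Acaa1b was the 1 of 27 genes above 5 CPM in both libraries, at 0.77 and so under 2-fold at 10 to 20% mitochondrial UMIs. The rate-limiting Cpt1a had a ratio of 0.26. Fatty acid synthesis had a median of -0.20, with the desaturase Fads2 at least 2-fold higher (1.17), Lpin1 at least 2-fold lower (-1.02, but -0.95 with cells thinned), and Fasn and Scd1 at -0.40 and -0.68. In cholesterol synthesis 19 of 26 lay below 0 (median -0.25), among them Hsd17b7 (-1.09), while Ebp was higher (0.81). Over all genes 41.4% lay above 0 and the median was -0.07. Insig2, which holds the sterol sensor complex in the endoplasmic reticulum, measured 470.1 and 128 CPM (-1.86). Fabp5, a fatty acid binding protein, measured 132 and 626 CPM, and Fabp1, the main one of hepatocytes, 4081 and 6992 CPM.

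Cyp7a1, the rate-limiting enzyme of bile acid synthesis, stood apart from its list. It measured 39.7 CPM at 24 h (36.9 to 42.6) and 197 CPM at 48 h (191 to 203), a 4.97-fold difference, and at 5000 UMIs it was found in 11.8% and 40.9% of cells. The adult control measured 22.2 CPM and the 96 h library 171 CPM, so the 24 h and 48 h libraries were both above the control. Of the 23 genes of bile acid synthesis and transport it was the 1 member at least 2-fold higher, and the median was -0.26. Cyp8b1 and Cyp7b1, other enzymes of the pathway, had ratios of -0.26 and -0.66, Nr0b2 (SHP), the repressor that acts on Cyp7a1, 0.08, and the uptake transporter Slco1a4 -1.22.

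Drug-metabolising enzymes diverged. Of 65 tested P450 and conjugation genes, 11 were at least 2-fold higher and 6 at least 2-fold lower (median -0.04), or 9 and 5 of the 61 that reached 5 CPM in both libraries. The 11 and 6 are 16.9% and 9.23% of the list, beside 1.78% and 1.76% of all genes. Inmt, a methyltransferase, measured 6.66 and 47.1 CPM (2.65), the carboxylesterase Ces1d 30.6 and 133 CPM (2.08), and Cyp2c54, Cyp2c37, Cyp2c50 and Cyp2c68 had ratios of 1.63, 1.49, 1.18 and 1.24, the last at 0.89 with cells thinned. In the other direction Gstm3, a glutathione transferase, measured 554 and 61.6 CPM (-3.15) and Moxd1, a monooxygenase-like gene, 55.8 and 0.720 CPM (-5.04, from 1088 and 15 UMIs). The adult control measured 19.8 CPM for Gstm3, 115 CPM for Moxd1 and 154 CPM for Ces1d. Against it Gstm3 was higher at both times, and Moxd1 and Ces1d were lower at both. Moxd1 was found in 18.0% of cells at 24 h and in 0 of 719 at 48 h at 5000 UMIs per cell, which allows up to 0.417% of cells with a UMI at that depth. At full depth 11 of the 719 cells held a UMI (1.53%, 0.766% to 2.72%). Cyp2c and Gstm genes are families of close copies, so reads may be split among members.

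Genes of the lobule zones gave mixed values. Of 24 pericentral genes, 3 were at least 2-fold higher and 3 at least 2-fold lower (median 0.17), with Cyp2e1 at 0.67, glutamine synthetase Glul at 0.62 and the Wnt target Axin2 at -1.21. Of 26 periportal genes, 18 lay below 0 and 3 were at least 2-fold lower (median -0.47), with Hal at -1.39, Cdh1 at -1.06 and Cyp2f2 at -0.87. The share above 0 over all genes was 41.4%, with a median of -0.07. At 10 to 20% mitochondrial UMIs the ratios of Glul, Axin2, Hal and Cyp2f2 were 0.01, -0.66, -2.19 and -2.04. Glul stood at 1.80 in cells with at least 2% of UMIs from Alb, Apoa1 and Ttr, and Axin2, which reached 5 CPM at 24 h only, at -1.97 with cells thinned to 5000 UMIs. The sum of the periportal list went the other way, as it took a median of 2.66% of non-mitochondrial UMIs per cell at 24 h and 3.49% at 48 h. The abundant Trf and Serpina1e in that list were higher (0.47 and 0.70).

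**Figure D3:**
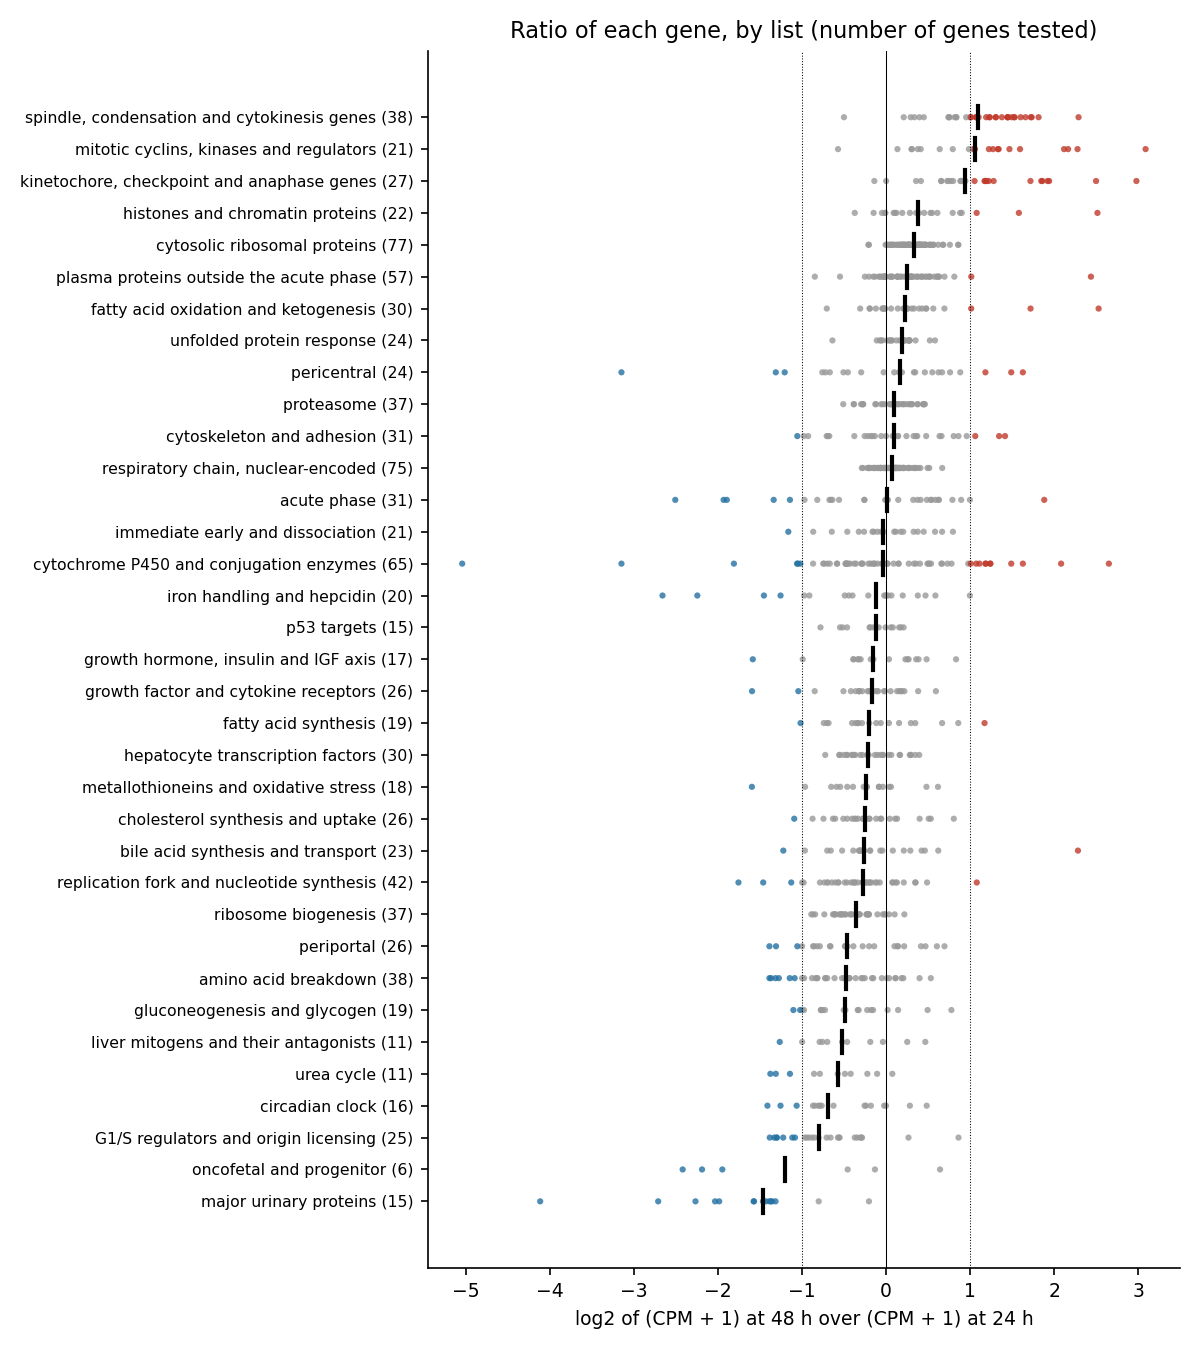
Ratio of every tested gene by list, as log2 of (CPM + 1) at 48 h over 24 h, with the number of genes tested in parentheses. Red points are at least 2-fold higher and blue points at least 2-fold lower, and black bars mark medians. The 3 mitosis lists lie at the top with medians near 1, and the major urinary proteins at the bottom at -1.46.

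The iron list had a median of -0.12 over 20 genes, and its 4 members at least 2-fold lower are known as targets of bone morphogenetic protein (BMP) signalling, which controls iron through hepcidin. Id1 measured 75.1 and 11.04 CPM (-2.66), Id3 155 and 31.8 CPM (-2.25), Id2 426 and 178 CPM (-1.26) and the inhibitory Smad7 26.9 and 9.17 CPM (-1.45). No member was at least 2-fold higher. Hepcidin (Hamp) measured 2188 and 1114 CPM (-0.97), and transferrin receptor Tfrc had a ratio of -0.91, while ferritin heavy chain Fth1 was level (0.00). Against the adult control, at 3.00 CPM for Id1 and 429 CPM for Hamp, both time points were higher, whereas Id3, at 55.7 CPM in the control, was above it at 24 h and below it at 48 h.

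Among signals and receptors of growth, the mitogen list lay lower and the receptor list near all genes. Tgfa, a ligand of the epidermal growth factor receptor, measured 56.7 and 22.99 CPM (-1.27), the 1 of 11 mitogen genes at least 2-fold lower (9 of 11 below 0, list median -0.52). Of 26 receptor genes, 18 lay below 0, 2 (7.69%, beside 1.76% of all genes) were at least 2-fold lower and the median was -0.16. Among them Fgfr2 (-1.60) and Tnfrsf12a, the receptor of TWEAK (-1.04, but -0.997 with median-of-ratios scaling), were at least 2-fold lower, and Egfr and Met, the receptors of epidermal and hepatocyte growth factor, had ratios of -0.32 and 0.22. The immediate early gene Myc measured 11.99 and 4.80 CPM (-1.16, but -0.53 at 10 to 20% mitochondrial UMIs and -0.86 with cells thinned), and Fos and Jun had ratios of 0.38 and 0.45. Cish, a target of growth hormone signalling through STAT5, measured 10.5 and 2.83 CPM (-1.59). Myc, Cish and Fgfr2 reached 5 CPM at 24 h only and so had to differ. Ly6d, Spp1 and Tff3, from the list of progenitor and oncofetal genes, were lower by ratios of -2.42, -2.19 and -1.95, and only 6 genes of that list were tested. Spp1 stood at -1.28 when cells with 5 to 30% mitochondrial UMIs were taken.

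Of 16 circadian genes, 14 lay below 0 (median -0.70). The 3 members at least 2-fold lower, Dbp among them, reached 5 CPM at 24 h only and so had to differ, and none of the 13 that reached it in both libraries was past 2-fold. Dbp measured 152 CPM in the adult control, 9.07 CPM at 24 h, 3.22 CPM at 48 h and 119 CPM at 96 h, and the repressor Nr1d1 106, 47.1, 27.3 and 93.2 CPM. The activator Arntl had a ratio of 0.48, and of -0.01 at 10 to 20% mitochondrial UMIs. The labels used here give no time of day for either library.

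Genes of ribosome construction and of the ribosome itself had opposite signs. All but 3 of 77 ribosomal protein genes lay above 0 (median 0.34, none 2-fold), with Rpl3 at 269 and 488 CPM. All but 3 of 37 nucleolar biogenesis genes lay below 0 (median -0.36, none 2-fold), with Ddx21, an RNA helicase of rRNA processing, at 56.6 and 31.1 CPM and Ncl highest at 0.22. The nuclear-encoded respiratory chain (median 0.07 over 75 genes) and the proteasome (0.10 over 37) had no member past 2-fold. Hepatocyte transcription factors had none either (median -0.21 over 30), with Hnf4a at -0.55, Cebpa at 0.16 and Cebpb at -0.37. The p53 targets had a median of -0.12, and Cdkn1a (p21), the cell cycle inhibitor among them, measured 107 and 76.9 CPM against 2.25 CPM in the adult control.

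**Figure D4:**
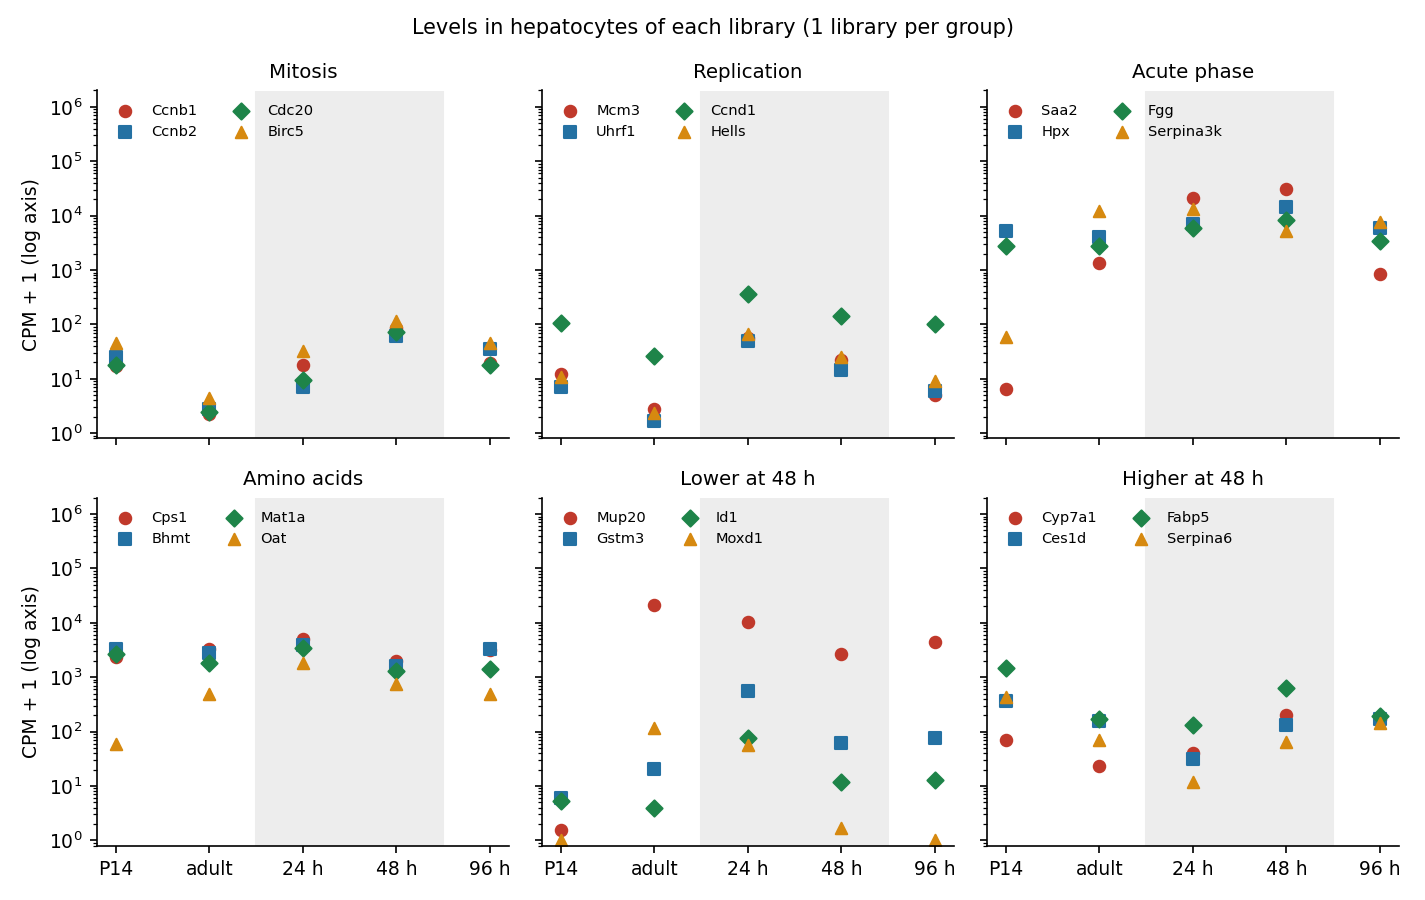
Levels of 24 genes in the hepatocytes of all 5 libraries, as CPM + 1 on a log axis, 1 point per gene and library, with 24 h and 48 h shaded. The 4 mitosis genes are highest at 48 h and the 4 replication genes at 24 h, whereas Mup20 is highest in the adult control and Cyp7a1 is higher at 48 h and 96 h than at 24 h.

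The metabolic differences were also present in cells that were rich in neither mitosis nor replication transcripts (539 at 24 h, 297 at 48 h). There the median was -1.38 for the major urinary proteins, -0.64 for the urea cycle, -0.44 for amino acid breakdown and -0.63 for periportal genes, against -0.13 for all genes, of which 1.13% were at least 2-fold higher and 1.88% lower. Cps1, Mup20, Gstm3 and Id1 had ratios of -1.22, -2.09, -3.14 and -3.39 in these cells, and Cyp7a1, Fabp5 and Ces1d of 2.83, 2.67 and 2.31. In mitosis-rich cells (379 and 373) the same genes gave -1.45, -1.88, -3.22 and -2.72, and 1.98, 1.85 and 1.99. Periportal genes had a median of -0.14 in the mitosis-rich cells, nearer 0 than in the others.

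**Figure D5:**
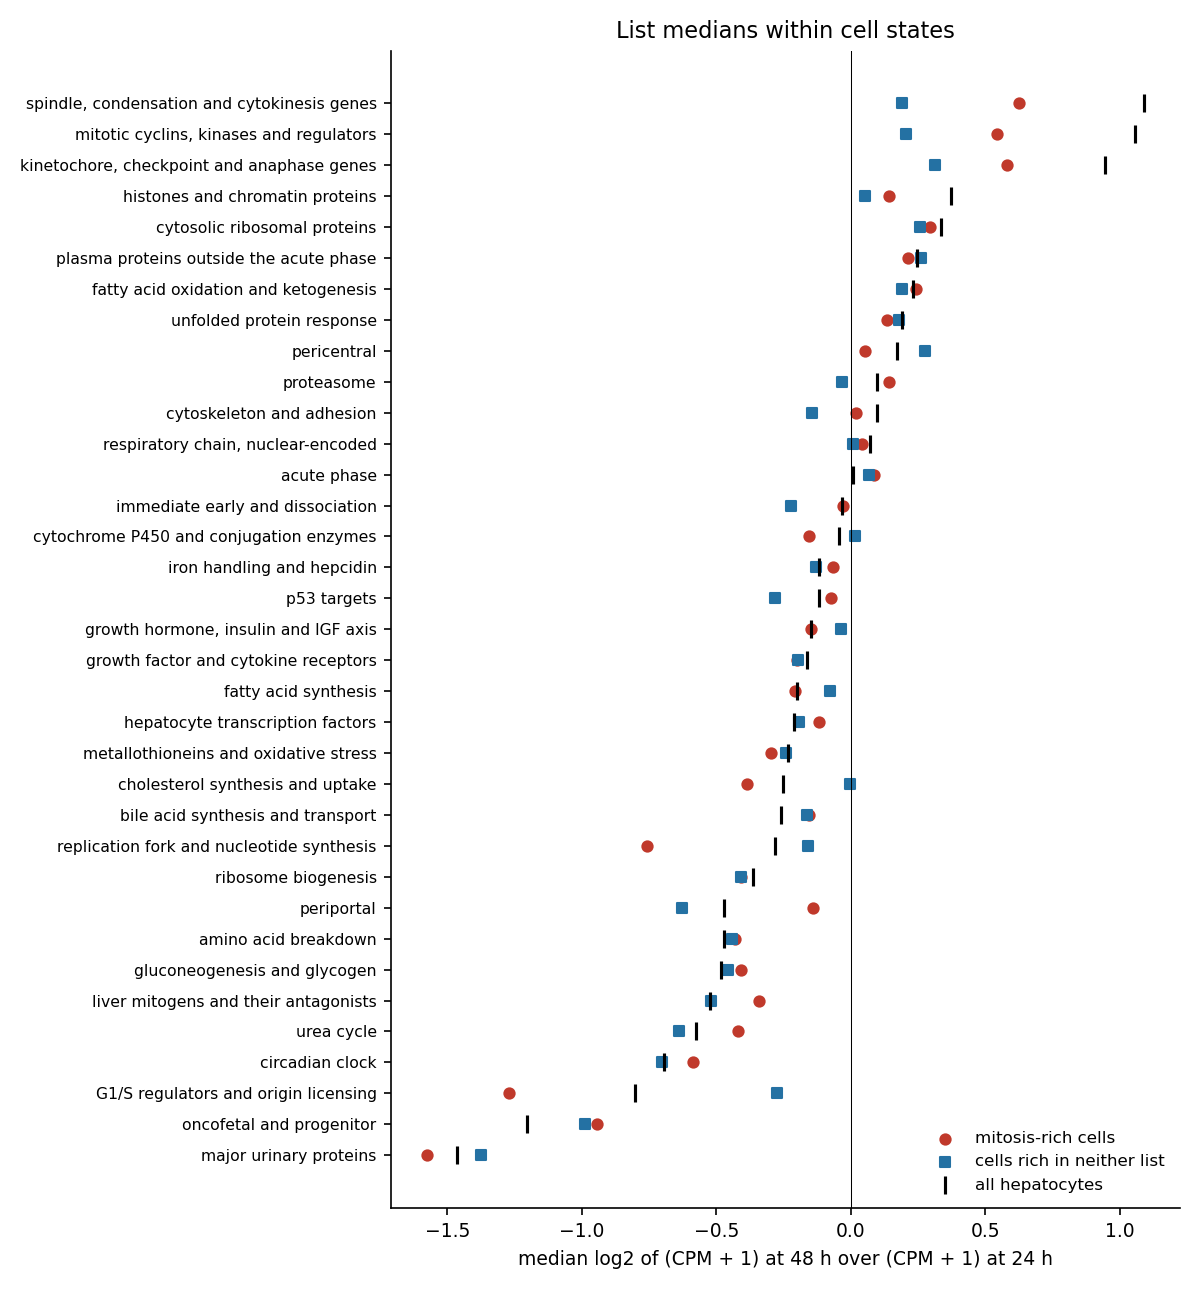
Median ratio of each list, as log2 of (CPM + 1) at 48 h over 24 h, within mitosis-rich cells (red circles), within cells rich in neither list (blue squares) and in all hepatocytes (black bars). The mitosis and replication lists spread apart between the classes, which were cut on those lists, whereas the major urinary proteins, urea cycle and amino acid lists stay below 0 in both.

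Markers of other cells were summed in the same way, and their part in the differences was not tested. The 10 macrophage markers summed to 1.33 CPM at 24 h and 1.10 CPM at 48 h, with 1 and 2 of them at 0, 7 endothelial markers to 18.1 and 18.3 CPM and 7 stellate markers to 10.9 and 4.08 CPM. The 5 cholangiocyte markers summed to 102 and 44.9 CPM, almost all from Spp1 and Sox9, while Krt19 was at 0 in both and Epcam at 0 and 1 UMI. The 8 T or NK cell markers summed to 3.43 and 8.54 CPM, the 5 B cell markers to 2.36 and 7.78 CPM, and the 5 monocyte or dendritic markers to 8.51 and 13.9 CPM, each higher at 48 h, and the 2 platelet markers stayed below 1 CPM. Igkc, an immunoglobulin light chain gene outside these lists, measured 27.2 and 77.95 CPM and was found in 11.2% and 30.3% of cells at 5000 UMIs, and its ratio of 1.49 became 0.63 at 10 to 20% mitochondrial UMIs. The 4 neutrophil markers summed to 101 and 188 CPM, and S100a9 (52.4 and 106 CPM) was past 2-fold, but at 0.73 at 10 to 20% mitochondrial UMIs. Free RNA could supply 26.2% of the neutrophil sum at 24 h and 8.10% at 48 h. Prtn3, a granule protease gene, measured 46.4 and 220.2 CPM and was found in 15.6% and 52.3% of cells at 5000 UMIs. Its granule partners Elane, Mpo and Ctsg stayed below 1 CPM in both libraries, and free RNA could supply 7.93% and 1.48% of the Prtn3 UMIs. The 5 erythroid markers summed to 521 and 761 CPM.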

How the data were processed

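For each library the authors deposited whole-number UMI counts per gene and barcode, for 31053 genes and all 6794880 barcodes, empty droplets included. Per the submitters' processing notes, bcl2fastq 2.17.1.14, Cell Ranger, Seurat 3.1 and build mm10 were used, and per the file headers software version 3.0.2 wrote the matrices. How these steps were set is not given in the sources used here. Counts of the hepatocyte barcodes were added up within each library and scaled to CPM on their total less mitochondrial genes, with a pseudocount of 1 CPM in ratios, which understates the ratios of low genes. Genes with at least 5 CPM in either library were compared, and a gene was counted as higher or lower at 2-fold or more. Intervals are exact (Poisson for CPM, Clopper-Pearson for ratios and shares of cells) and, like the floor of 3 counts, cover counting error only. Free RNA was the mean of barcode ranks 20001 to 60000. Named genes were the 20 highest and 20 lowest ratios at 50 CPM or more, the 10 largest CPM differences each way, and list members. Genes named outside that rule were chosen after their values were seen. The comparison, the 35 gene lists and the markers were chosen with earlier results of these data known. The mitosis and replication limits were set after seeing the data, because the planned definition of cells outside the cycle left 29 and 13 cells. No doublet was removed in the main values. Scrublet in scanpy 1.11.5 marked 2.39% and 2.04% of barcodes, 10 and 12 of them hepatocytes, and their removal was an alternative. The calculation was tested on simulated counts. Other scalings came from edgeR 4.0.16. Alternatives changed the UMI, mitochondrial and Alb+Apoa1+Ttr limits, scaling, pseudocount, expression filter, depth, doublets, free RNA and barcodes rich in markers of other cells. The protocol text lists the adult control among the operated animals, against its title, and it was used here only for side-by-side levels and for the limits. Python 3.11.15 and R 4.3.3 were used.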

Additional observations from a re-analysis of the deposited data

Results flagged for a closer look

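Barcodes outside the mitochondrial limits, which enter no comparison above, also carried mitosis transcripts. Of barcodes with at least 1% of UMIs from Alb, Apoa1 and Ttr but under 10% mitochondrial UMIs, 71.3% of 328 at 24 h and 85.2% of 176 at 48 h had at least 3 mitosis genes with a UMI, against 35.3% of 150 in the adult control. Of those over 30%, 41.6% of 462 and 47.1% of 363 did, against 5.39% of 501 in the adult control. They were marked because the signal lies above the control in barcodes that were left out. Depth was not equalised here, and medians were 8702 and 9788.5 UMIs under 10% and 9851 and 14823 UMIs over 30%, against 6045 and 10326 in the control. The median ratio of the pooled mitosis lists was 1.11 under 10% and 0.57 over 30%, of the replication lists -0.40 and -0.50, and of the major urinary proteins -1.10 and -1.60. The sign was opposite to that within the limits for 9 of 35 lists under 10% and for 4 over 30%. For ribosomal proteins the median was -0.09 under 10% and 0.45 over 30% against 0.34 within the limits, for periportal genes 0.02 and -0.03 against -0.47, for acute phase genes 0.29 and -0.12 against 0.01, and for the respiratory chain -0.09 and 0.26 against 0.07.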

How the results depend on the processing

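Of 176 genes checked, which include those named in the text with a ratio other than Ddx3y, 170 kept the sign of their ratio under the 14 alternatives run. The others were Cenpn, Cenpk, Fth1, Arntl, Nr0b2 and Cyp8b1, none past 2-fold. Of the 112 past 2-fold, 30 were under it with a pseudocount of 10 and 23 under some other alternative. The latter moved most for Igkc, Axin2, Myc and Oat (0.63, -0.66, -0.53 and -0.88 at 10 to 20% mitochondrial UMIs) and Hells and Foxm1 (-0.90 and 0.81 with cells thinned to 5000 UMIs). Under alternatives other than that pseudocount, 20 genes moved by over 1.5-fold, among them Spp1 (-1.28 at 5 to 30% mitochondrial UMIs), A2m (-1.28 thinned), Fgfr2, Ly6d and Tff3 (-2.21, -3.32 and -2.85 at 10 to 20%) and, at 2% or more Alb, Apoa1 and Ttr, Glul, Cyp2c37, Cyp2c50 and Cyp2c54 (1.80, 2.33, 1.84 and 2.33). The sign held for 32 of 38 medians over lists and over all genes. The other 6 were acute phase (-0.04 to 0.15), P450 and conjugation (-0.08 to 0.01), cytoskeleton (-0.06 to 0.14), immediate early (-0.10 to 0.02), respiratory chain (-0.03 to 0.12) and oncofetal genes, the last reversed to 0.064 with no filter on low values, which adds genes near 0. Counts of higher and lower genes were 61 and 67 with a pseudocount of 10, and 51 and 75 at 50 CPM or more. The count of higher genes was 249 at 10 to 20% mitochondrial UMIs (181 and 116 cells), and that of lower genes 206 there and 233 with cells thinned to 5000 UMIs. The mitosis median was 0.69 with a pseudocount of 10, and at 50 CPM the replication and acute phase medians were -0.76 and 0.15. The urea cycle median was -0.77 at 10 to 20% mitochondrial UMIs, -0.69 at 2% or more Alb, Apoa1 and Ttr, -0.66 thinned and -0.50 with free RNA subtracted. Mitosis-rich cells at 24 h and 48 h were 22.3% and 45.9% at 2% or more Alb, Apoa1 and Ttr, and 50.6% and 62.7% by at least 3 genes with a UMI. They were 27.8% and 48.3% at 5 to 30% mitochondrial UMIs, and 33.7% and 69.8% at 10 to 20%. Replication-rich cells were 44.97% and 28.7% at 2% or more Alb, Apoa1 and Ttr, 58.0% and 33.6% at 10 to 20% mitochondrial UMIs, and 85.7% and 77.7% by at least 3 genes. Where the cell rule changed, the mitosis and replication limits were set anew on the adult control cells of that setting. These were 743 at 2% or more Alb, Apoa1 and Ttr, 931 at 5 to 30% mitochondrial UMIs and 87 at 10 to 20%. Those shares thus do not use the limits of the main values. At 5 to 30% the cells at 24 h only rose from 1170 to 1191, so added cells alone do not give 27.8%. How much of the other shifts came from moved limits was not tested. The 2% limit and the 3-gene rule were chosen after seeing the data, and the planned 5% limit left 6 and 2 cells and was not run. No paired analysis was possible because each time point has 1 library. Differences between mice, which 1 library per time cannot show, limit every value, and genes near 5 CPM rest on about 100 UMIs.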

Other observations

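Genes outside the lists also differed. The rule was a 2-fold difference at 50 CPM or more in either library. A gene that reached 50 CPM in only 1 library was thus bound to be lower in the other. Isyna1, Csad, Gas6 and Ppm1k reached it at 48 h only, and Fkbp5, Bcl2l1, Dusp6, Cxcl14 and Phlda1 at 24 h only. The chemokine gene Ccl9 measured 103 CPM at 24 h and 254 CPM at 48 h. Isyna1, the enzyme of inositol synthesis, measured 17.8 and 76.4 CPM, and Csad, of taurine synthesis, 33.8 and 92.2 CPM, both above the 24 h level. Gas6, the ligand of the TAM receptors, measured 36.6 and 76.99 CPM (a ratio of 1.05, but 0.97 at 10 to 20% mitochondrial UMIs), and Ppm1k, the phosphatase that activates branched-chain keto acid breakdown, 21.2 and 62.2 CPM.

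In the other direction, the glucocorticoid target Fkbp5 measured 74.3 and 30.5 CPM, the survival gene Bcl2l1 75.2 and 28.03 CPM and Dusp6, a feedback phosphatase of ERK signalling, 67.5 and 27.2 CPM. The neutrophil chemokine Cxcl1 measured 209 and 101 CPM and the chemokine Cxcl14 91.98 and 44.2 CPM, ratios that were both -0.99 with median-of-ratios scaling. The aldehyde oxidase Aox3 (244 and 102 CPM) and Kynu, of tryptophan breakdown (157 and 74.2 CPM), were lower as well. Phlda1 measured 865 CPM in the adult control, 153 CPM at 24 h, 47.8 CPM at 48 h and 357 CPM at 96 h, so that 48 h was the lowest of the adult libraries. Each of these values is from 1 library per time.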
